A study of Homo sapiens with 6 samples.

Results

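The proteasome genes were taken as every gene whose symbol is PSM followed by a letter from A to G and a number, which gave 48 of the 60748 genes in the deposited table, and 46 of the 48 passed the filter on low counts and were tested. They comprise the constitutive 20S core (the α ring, the catalytic β subunits and the structural β subunits), the immunoproteasome β subunits, the 19S regulatory particle, the assembly chaperones, and the other activators with the inhibitor PSMF1. The libraries were made from LX-2, a hepatic stellate cell (HSC) line of human origin, to compare LX-2Vector cells, which carry the control vector (n = 3 libraries), with LX-2FAP cells, which overexpress fibroblast activation protein α (FAPα; n = 3 libraries). Both lines were cultured for 24 hours. Per the study's methods, LX-2FAP cells were made with a FAPα lentivirus in a vector with a ubiquitin promoter, EGFP and a puromycin marker, and stable clones were selected with puromycin. How many clones a line holds, and whether the 3 libraries of a group came from separate cultures, is not given in the sources used here, so p-values measure the spread between these libraries, which may be technical.

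The proteasome degrades proteins tagged with ubiquitin. Its barrel-shaped 20S core cuts the protein inside a chamber, α subunits gate the entrance, and the 19S particle binds the ubiquitin chain, removes it and feeds the unfolded protein in with a ring of ATPases. The immunoproteasome subunits PSMB8, PSMB9 and PSMB10, which interferon-γ induces in many tissues, take the places of the catalytic subunits PSMB5, PSMB6 and PSMB7 in newly built cores and alter which peptides are made for presentation on MHC class I. Subunit genes are known to be transcribed together through antioxidant response elements bound by NFE2L1.

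Promoter sequences were read from RefSeq (GRCh38.p14; 250 bases before to 50 after each start), which held 42 of the 48 genes. Shown are those of the 3 called genes with the smallest adjusted p-values, which carry the antioxidant response element letters TGANNNNGC (read on both strands), with the match in capitals. PSMD12 lies at chr17:67366528-67366827 on the minus strand, PSMD13 at chr11:236726-237025 on the plus strand and PSMD14 at chr2:161308175-161308474 on the plus strand, and the PSMD14 match is on the reverse strand.
PSMD12: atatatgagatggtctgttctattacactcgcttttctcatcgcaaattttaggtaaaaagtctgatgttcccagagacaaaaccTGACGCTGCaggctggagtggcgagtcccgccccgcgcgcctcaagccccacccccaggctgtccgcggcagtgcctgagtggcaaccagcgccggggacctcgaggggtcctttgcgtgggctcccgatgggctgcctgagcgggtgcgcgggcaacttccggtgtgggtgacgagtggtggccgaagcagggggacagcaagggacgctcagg
PSMD13: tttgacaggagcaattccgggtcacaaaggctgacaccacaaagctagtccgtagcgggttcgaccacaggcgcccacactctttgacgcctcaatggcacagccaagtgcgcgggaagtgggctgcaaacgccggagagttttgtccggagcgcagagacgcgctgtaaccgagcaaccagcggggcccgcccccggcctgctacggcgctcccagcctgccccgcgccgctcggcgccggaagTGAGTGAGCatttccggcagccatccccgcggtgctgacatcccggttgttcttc
PSMD14: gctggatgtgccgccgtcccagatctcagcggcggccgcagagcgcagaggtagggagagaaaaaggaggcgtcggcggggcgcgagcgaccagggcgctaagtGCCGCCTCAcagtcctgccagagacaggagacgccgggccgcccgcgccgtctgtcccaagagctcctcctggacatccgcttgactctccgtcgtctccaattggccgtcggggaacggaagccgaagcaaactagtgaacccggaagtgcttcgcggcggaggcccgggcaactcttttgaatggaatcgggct
These matches began at positions -165, -5 and -146 from the start. Of the 9 called genes, 5 carried the letters (PSMD1, PSMD5, PSMD12, PSMD13 and PSMD14) and 4 did not (PSMA4, PSMC2, PSMC6 and PSMD6). The letters TGANNNNGC were present in 26 of the 42 proteasome promoters (61.9%) and in 42.1% of all 27305 promoters in the same table. The GAS letters TTCNNNGAA were found in 11.9% of proteasome promoters and in 7.88% of all, and CCAAT in 45.2% and 35.7%, each searched on both strands. A match is a description of the letters and not a bound site.

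Libraries held 17355700 to 26352060 counts. FAP, the overexpressed gene, had 42 to 55 counts in LX-2Vector libraries and 14805 to 15160 in LX-2FAP libraries. On the first principal component of all tested genes LX-2FAP replicate 1 (1.9) lay nearest to the LX-2Vector libraries (-20.7 to -11.6), while the other LX-2FAP libraries lay at 17.0 and 25.4. Of 13 stellate cell markers 10 were tested. The summed level of all 13 was 2328 to 2460 CPM (counts scaled to library size) in LX-2Vector and 2318 to 2459 CPM in LX-2FAP. LRAT, the retinol-esterifying enzyme of retinoid-storing stellate cells, was at 0 in every library. Marker sums were scaled by library size alone, while CPM of single genes include TMM factors. The stellate sum is mostly VIM, the filament protein vimentin. VIM rose (1517 to 1584 CPM in LX-2Vector and 1677 to 1727 CPM in LX-2FAP, edgeR adjusted p = 0.0372). The collagen genes COL3A1 and COL1A1 and the receptor gene PDGFRB fell, with log2 fold changes of -0.69, -0.40 and -0.38 (adjusted p = 0.00765, 0.0135 and 0.0269). Summed hepatocyte markers (6 genes, TTR at 0) were 13.1 to 14.95 CPM in LX-2Vector and 10.4 to 11.7 CPM in LX-2FAP, endothelial markers (5 genes, none at 0 throughout) 10.0 to 11.4 and 7.24 to 9.09 CPM, leukocyte markers (5 genes) 11.2 to 15.04 and 12.6 to 16.2 CPM, and epithelial markers (4 genes) 0.807 to 2.42 and 0.823 to 0.992 CPM. The hepatocyte sum is nearly all SERPINA1 (12.5 to 14.6 CPM in LX-2Vector and 10.3 to 11.6 CPM in LX-2FAP), with the other hepatocyte genes at or near 0. Of the endothelial genes VWF fell (log2 fold change -1.06, adjusted p = 0.0268) and PECAM1 was at 0.05 (adjusted p = 0.878). The part of these marker differences in the results was not tested.

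A minority of proteasome transcripts were called higher in LX-2FAP cells, by small amounts, among them 8 of the 31 constitutive subunits of the 20S core and the 19S particle. Of the 46 tested genes, 9 rose and 0 fell (edgeR quasi-likelihood, Benjamini-Hochberg adjusted p under 0.05 over all 18275 tested genes), where 2.57% of all tested genes rose and 5.29% changed in either direction. The log2 fold change was positive for 38 of the 46 and negative for 8, with a median of 0.12 and a range from -0.33 to 0.22, while over all tested genes 47% were positive and the median was -0.01. An unadjusted p under 0.05 was reached by 24 of the 46, 23 of them higher, where 22.2% of all tested genes did (10.5% higher). In bulk RNA, a change in the number of cells with a transcript and a change in transcript per cell cannot be told apart.

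**Figure D1:**
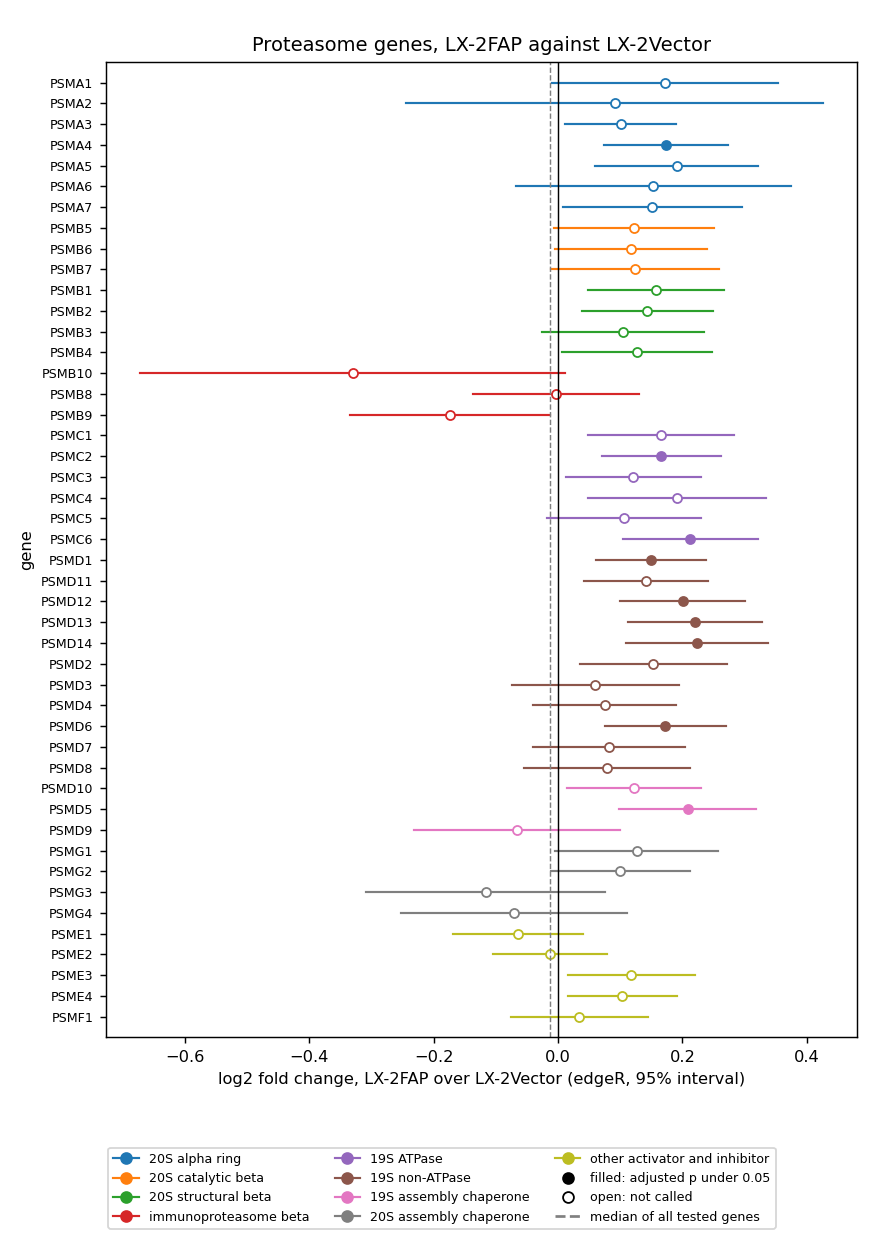
Log2 fold change of LX-2FAP over LX-2Vector for the 46 tested proteasome genes (horizontal axis, edgeR estimate with 95% confidence interval), ordered by role. The 20S core and 19S genes all lie right of 0, with medians of 0.14 and 0.15, and the 3 immunoproteasome genes lie at or left of 0.

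The 19S regulatory particle held most of the calls. Of its 17 genes, 7 rose, 17 had a positive log2 fold change and 12 had an unadjusted p under 0.05. Over all tested genes these shares were 2.57%, 47% and 22.2%. The median was 0.15 and the range 0.06 to 0.22. The groups did not overlap, with LX-2FAP higher, for 8 of the 17, where 13% of all tested genes separated in that direction.

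Among the non-ATPase subunits, 5 of 11 rose. PSMD13, a lid subunit (ENSG00000185627, chromosome 11, 236546 to 252984; here and below GRCh38 positions from GENCODE release 29), measured 83.8, 90.3 and 82.8 CPM in LX-2Vector and 95.8, 106 and 97.8 CPM in LX-2FAP, given, as are all values per library, in the order of replicates 1, 2 and 3. Every LX-2FAP library was above every LX-2Vector library. Its log2 fold change was 0.22 (SE 0.05, edgeR adjusted p = 0.0233).

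PSMD12, a lid subunit that helps to hold the particle together (ENSG00000197170, chromosome 17, 67337916 to 67366627), measured 255, 267 and 242 CPM in LX-2Vector and 276, 303 and 299.8 CPM in LX-2FAP. The lowest LX-2FAP library, replicate 1, lay just above the highest LX-2Vector library. Its log2 fold change was 0.20 (SE 0.05, edgeR adjusted p = 0.0257). PSMD14, the deubiquitinase that removes ubiquitin chains from the substrate as it is degraded (ENSG00000115233, chromosome 2, 161308038 to 161411717), measured 115, 118 and 105 CPM in LX-2Vector and 122, 136 and 136 CPM in LX-2FAP. The groups did not overlap, and LX-2FAP replicate 1 was again the lowest of its group. For PSMD14 the log2 fold change was 0.22 (SE 0.05, edgeR adjusted p = 0.0283).

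PSMD6, another lid subunit (ENSG00000163636, chromosome 3, 64010549 to 64024010), measured 141, 145 and 132 CPM in LX-2Vector and 151, 163 and 157 CPM in LX-2FAP. The groups did not overlap, with LX-2Vector replicate 3 lowest. On the log2 scale the difference was 0.17 (SE 0.05, edgeR adjusted p = 0.0419). PSMD1, the large base subunit that serves as a docking platform for ubiquitin receptors (ENSG00000173692, chromosome 2, 231056864 to 231172827), measured 428, 425 and 398 CPM in LX-2Vector and 445, 472 and 471 CPM in LX-2FAP. Here too the lowest LX-2FAP library was above the highest LX-2Vector library. PSMD1 thus differed by 0.15 on the log2 scale (SE 0.04, edgeR adjusted p = 0.0488), the largest adjusted p among the 9 called genes.

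The other 6 non-ATPase subunits, PSMD2, PSMD3, PSMD4, PSMD7, PSMD8 and PSMD11, had log2 fold changes of 0.06 to 0.15, adjusted p-values of 0.0860 to 0.635 and overlapping groups. PSMD4 is a receptor for ubiquitin chains, and PSMD2 is the other large base subunit. PSMD2 spanned 499 to 590.2 CPM in LX-2Vector and 569 to 641 CPM in LX-2FAP, so that LX-2FAP replicate 1 fell inside the control range.

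The 6 ATPases form the ring that unfolds the substrate, and 2 of them rose. PSMC6 (ENSG00000100519, chromosome 14, 52707172 to 52728587) measured 179, 186 and 168 CPM in LX-2Vector and 191, 217 and 210.5 CPM in LX-2FAP. PSMC2 (ENSG00000161057, chromosome 7, 103344254 to 103369395) measured 249.6, 252 and 234 CPM in LX-2Vector and 265, 290.3 and 271 CPM in LX-2FAP. For both, the groups did not overlap. Log2 fold changes were 0.21 for PSMC6 (SE 0.05, edgeR adjusted p = 0.0285) and 0.17 for PSMC2 (SE 0.05, adjusted p = 0.0457).

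PSMC1 also separated the groups, at 76.9 to 86.2 CPM in LX-2Vector and 87.5 to 98.7 CPM in LX-2FAP, without passing the test (log2 fold change 0.17, edgeR adjusted p = 0.0877). It is the least certain of the ring, because 75.8% of its exon bases overlap those of NRDE2 on the opposite strand and 18.5% of its 75-base words also occur in the pseudogene PSMC1P1. PSMC3, PSMC4 and PSMC5 had log2 fold changes of 0.11 to 0.19, adjusted p-values of 0.105 to 0.305 and overlapping groups.

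**Figure D2:**
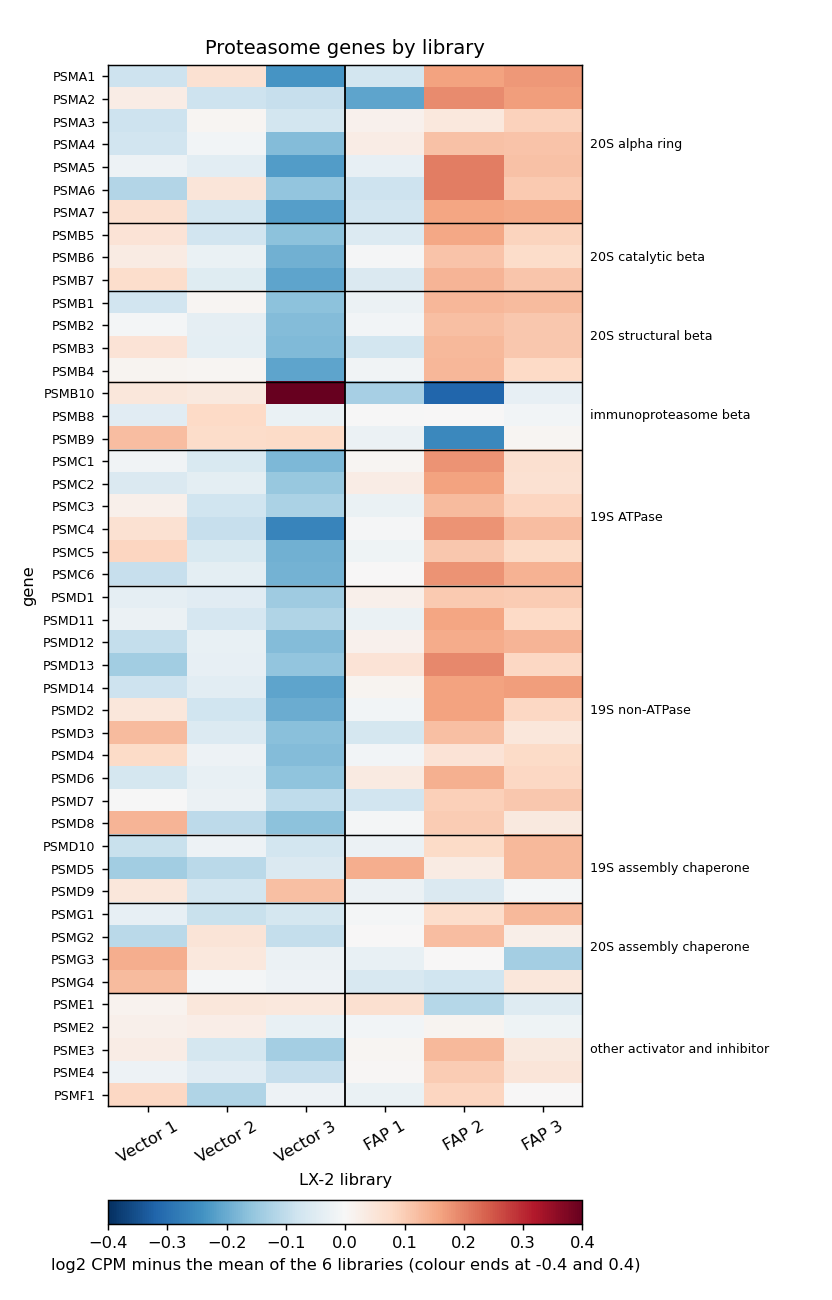
Deviation of each tested proteasome gene (rows, grouped by role) from its mean log2 CPM in each of the 6 libraries (columns, colour in log2 units). LX-2Vector replicate 3 is the lowest library for 32 of the 46 genes and LX-2FAP replicate 2 the highest for 28. These libraries are also the ends of the first principal component of all tested genes.

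In the constitutive 20S core, 1 of 14 genes rose (7.14%), where 2.57% of all tested genes rose, so the calls rest on a single gene. A positive log2 fold change was found for 14 of 14 (median 0.14, range 0.09 to 0.19), where 47% of all tested genes were positive. An unadjusted p under 0.05 was reached by 7, where 22.2% of all tested genes did. The called gene was the α subunit PSMA4 (ENSG00000041357, chromosome 15, 78540405 to 78552419), at 171, 179 and 159.6 CPM in LX-2Vector and 184, 195 and 195 CPM in LX-2FAP. Its groups did not overlap. The log2 fold change was 0.17 (SE 0.05, edgeR adjusted p = 0.0440).

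The other α subunits had log2 fold changes of 0.09 (PSMA2) to 0.19 (PSMA5) and adjusted p-values of 0.0813 to 0.794. PSMA3 was the other α subunit whose groups did not overlap, at 158 to 168 CPM in LX-2Vector and 169 to 178 CPM in LX-2FAP (log2 fold change 0.10, edgeR adjusted p = 0.171). PSMA5 had the largest fold change of the ring, but its LX-2FAP replicate 1, at 125 CPM, fell between the highest and lowest LX-2Vector libraries (109.9 to 126 CPM). PSMA1, PSMA2 and PSMA6 were the low members of the ring, and 24.7%, 14.6% and 14.1% of their exon bases are shared with a readthrough or neighbouring gene on the same strand that itself had 0 to 6 counts per library. Their levels are uncertain for that reason.

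The structural β subunits PSMB1, PSMB2, PSMB3 and PSMB4 complete the inner rings without a proteolytic site. None passed the test, although their log2 fold changes were 0.10 to 0.16, adjusted p-values 0.0827 to 0.339, and 3 had an unadjusted p under 0.05. In each, the groups overlapped.

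The 3 catalytic β subunits gave nearly equal estimates. PSMB5, the chymotrypsin-like subunit, measured 112, 103 and 96.7 CPM in LX-2Vector and 104, 121 and 115 CPM in LX-2FAP. PSMB6, the caspase-like subunit, measured 78.5, 75.3 and 67.1 CPM in LX-2Vector and 76.4, 82.9 and 80.7 CPM in LX-2FAP. PSMB7, the trypsin-like subunit, measured 194, 179 and 159.9 CPM in LX-2Vector and 178, 204 and 200.1 CPM in LX-2FAP. In all 3, LX-2FAP replicate 1 lay below LX-2Vector replicate 1 and the groups overlapped. Each had a log2 fold change of 0.12, with 95% intervals of -0.01 to 0.25 (PSMB5), -0.01 to 0.24 (PSMB6) and -0.01 to 0.26 (PSMB7) and edgeR adjusted p-values of 0.252, 0.247 and 0.269.

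The immunoproteasome β subunits did not share the positive sign. PSMB8, the counterpart of PSMB5 (ENSG00000204264, chromosome 6, 32840717 to 32844703), measured 25.4, 27.7 and 25.7 CPM in LX-2Vector and 26.2, 26.2 and 26.0 CPM in LX-2FAP. The LX-2FAP libraries lay inside the control range. Its log2 fold change was -0.003, with a 95% interval of -0.14 to 0.13 and an edgeR adjusted p of 0.987, an interval that also contains the estimate for PSMB5. Opposite-strand genes, mainly PSMB8-AS1, overlap 20.6% of the exon bases of PSMB8, so its level is uncertain where strand use is unknown.

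PSMB9, the counterpart of PSMB6, lies beside PSMB8 in the MHC region (ENSG00000240065, chromosome 6, 32844136 to 32859585). It measured 23.7, 22.9 and 22.9 CPM in LX-2Vector and 21.4, 18.2 and 21.9 CPM in LX-2FAP. Every LX-2FAP library was below every LX-2Vector library, and replicate 2 was well below the others. The log2 fold change was -0.17 (SE 0.08, unadjusted p = 0.0365, edgeR adjusted p = 0.191) and was -0.10 without LX-2FAP replicate 2, so the change did not pass the test.

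PSMB10, the counterpart of PSMB7 (ENSG00000205220, chromosome 16, 67934502 to 67937087), was the lowest of the 3, with 42 to 83 counts per library. It measured 3.03, 3.02 and 3.90 CPM in LX-2Vector and 2.67, 2.34 and 2.86 CPM in LX-2FAP. The groups did not overlap, with LX-2FAP lower, and LX-2Vector replicate 3 stood above the other controls. For PSMB10 the log2 fold change was -0.33 (SE 0.16, edgeR adjusted p = 0.243) and was -0.19 without LX-2Vector replicate 3. Of its exon bases, 34.8% are shared with AC040162.1 on the same strand, which had 23 to 44 counts per library, so how reads were split between them is uncertain. PSMB9 and PSMB10 were the 2 of 46 genes whose groups separated with LX-2FAP lower, where 13.4% of all tested genes did so.

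The balance of immunoproteasome and catalytic transcripts was described by the ratio of FPKM values (fragments scaled to gene length and library size, as deposited) within each library. Such a ratio does not measure which subunits stand in assembled cores. PSMB9 over PSMB6 was 0.131, 0.132 and 0.148 in LX-2Vector and 0.122, 0.0951 and 0.118 in LX-2FAP, a mean of 0.137 ± 0.00971 against 0.111 ± 0.0143 (SD, n = 3 each). PSMB10 over PSMB7 was 0.0171, 0.0186 and 0.0268 in LX-2Vector and 0.0165, 0.0126 and 0.0157 in LX-2FAP, a mean of 0.0208 ± 0.00523 against 0.0149 ± 0.00206. For both ratios every LX-2FAP library was below every LX-2Vector library. PSMB8 over PSMB5 overlapped between the groups, at 0.113 ± 0.0109 against 0.103 ± 0.00774. A ratio also falls when its denominator rises. The log2 fold change was -0.003 for PSMB8, -0.17 for PSMB9 and -0.33 for PSMB10, and 0.12 for each of PSMB5, PSMB6 and PSMB7. The parts of numerator and denominator in the ratios were not tested.

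Exact 2-sided permutation tests gave p = 0.1 for PSMB9 over PSMB6 and for PSMB10 over PSMB7 (0.15 adjusted over the 3 ratios) and p = 0.3 for PSMB8 over PSMB5 (0.3 adjusted). With 3 libraries against 3 the smallest p such a test can give is 0.1, so no ratio could pass 0.05. On the log2 scale the differences in mean ratio were -0.30, -0.48 and -0.13. They remained negative with any 1 library left out, at -0.37 to -0.20, -0.60 to -0.26 and -0.21 to -0.09. The value nearest 0 came without LX-2FAP replicate 2 for PSMB9 over PSMB6 and without LX-2Vector replicate 3 for PSMB10 over PSMB7.

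**Figure D3:**
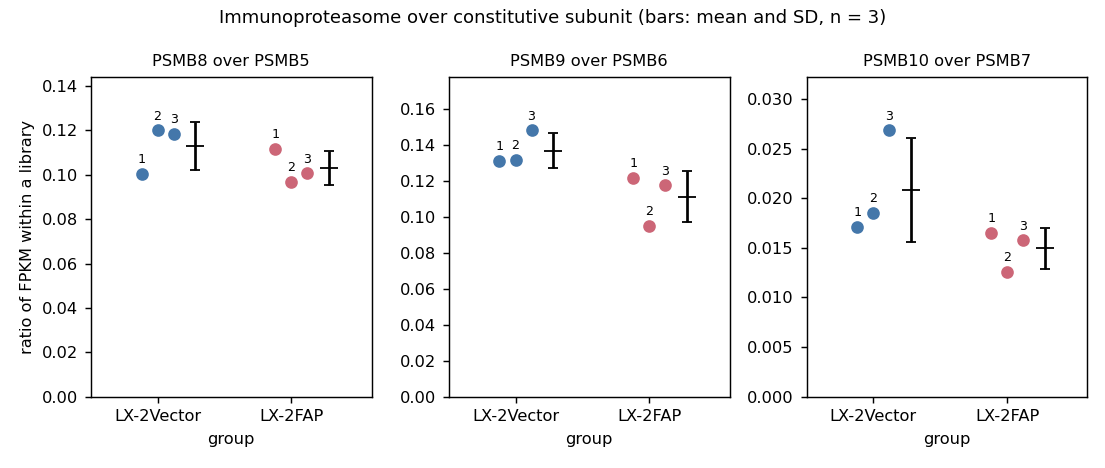
FPKM ratio of each immunoproteasome subunit to the catalytic subunit it replaces (vertical axis, no unit), 1 point per library with the group mean and SD (n = 3). LX-2FAP libraries lie below the LX-2Vector libraries for PSMB9 over PSMB6 and PSMB10 over PSMB7, and the groups overlap for PSMB8 over PSMB5.

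Of the chaperones that assemble the 19S base, PSMD5 rose. PSMD5 (ENSG00000095261, chromosome 9, 120815496 to 120842984) binds the ATPase PSMC2 before the base is complete, and measured 48.9, 49.97 and 51.8 CPM in LX-2Vector and 59.6, 55.2 and 59.0 CPM in LX-2FAP. Unlike most subunits, it was not lowest in LX-2Vector replicate 3 and was highest in LX-2FAP replicate 1, and the groups did not overlap. The log2 fold change was 0.21 (SE 0.05, edgeR adjusted p = 0.0314). PSMD10 was at 0.12 (adjusted p = 0.170) and PSMD9, which shares 19.9% of its exon bases with a same-strand neighbour, of -0.07 (adjusted p = 0.680).

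The 20S assembly chaperones PSMG1 to PSMG4, which help build the α ring, gave no call. PSMG1 and PSMG2, which act as a pair, had log2 fold changes of 0.13 and 0.10 (edgeR adjusted p = 0.242 and 0.283), and PSMG1 libraries did not overlap, at 28.2 to 29.3 CPM in LX-2Vector and 29.8 to 32.8 CPM in LX-2FAP. PSMG3 and PSMG4, which also act as a pair, had negative values. PSMG3 measured 11.3, 10.5 and 10.1 CPM in LX-2Vector and 10.0, 10.2 and 9.31 CPM in LX-2FAP. These groups overlapped, and the log2 fold change was -0.12 (SE 0.09, adjusted p = 0.494). PSMG4 was at -0.07 (adjusted p = 0.687).

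None of the other activators or the inhibitor passed the test. PSME1 and PSME2, the paired subunits of the interferon-inducible 11S cap had log2 fold changes of -0.06 and -0.01 (edgeR adjusted p = 0.482 and 0.905). PSME3, the nuclear 11S cap, and PSME4, the large single-chain activator, had values of 0.12 and 0.10 (adjusted p = 0.160 and 0.151), and the groups did not overlap for PSME4, at 199.96 to 210.4 CPM in LX-2Vector and 214 to 229 CPM in LX-2FAP. PSMF1 had a value of 0.03 (adjusted p = 0.756).

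PSMA8, the α subunit of the testis core, had 0 counts in all 6 libraries, and PSMB11, the catalytic subunit of thymic epithelium, had 0 to 2. A count of 0 allows up to 3 counts, which is 0.114 to 0.173 CPM per library and covers counting error only. Neither was tested.

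On the length-scaled level, constitutive subunits were well above their immunoproteasome counterparts. LX-2Vector means were 67.6, 51.3 and 100.1 FPKM for PSMB5, PSMB6 and PSMB7, and 7.60, 7.002 and 2.06 FPKM for PSMB8, PSMB9 and PSMB10. The structural β subunits ran from 49.2 FPKM (PSMB2) to 104.7 FPKM (PSMB1), the ATPases from 13.5 FPKM (PSMC1) to 52.4 FPKM (PSMC3) and the non-ATPase subunits from 15.5 FPKM (PSMD6) to 110.4 FPKM (PSMD2). Subunits that stand in the assembled particle in equal number therefore did not have equal FPKM. FPKM depends on the length used for each gene. The length implied by count and FPKM was 6994 bases for PSMA4 and 3107 for PSMA3. In LX-2Vector they had 170 and 161 CPM but 24.5 and 52.3 FPKM. For PSMB5 and PSMB8 the implied lengths were 1549 and 3480 bases, with LX-2Vector means of 104 and 26.3 CPM. The part of these lengths in the differences between genes was not tested.

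The α ring spread most, in this order: PSMA7 (125.2 FPKM), PSMA3 (52.3), PSMA4 (24.5), PSMA5 (21.2), PSMA1 (7.16), PSMA6 (1.31) and PSMA2 (0.345), the last 3 being those that share exons with a same-strand gene. PSMD9 (1.79 FPKM) and PSMG4 (1.18 FPKM) were the lowest chaperones and PSMG2 (31.2 FPKM) the highest. Among the caps, PSME1 (55.9 FPKM) was above PSME3 (42.4), PSME2 (24.5), PSME4 (19.9) and PSMF1 (13.2).

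**Figure D4:**
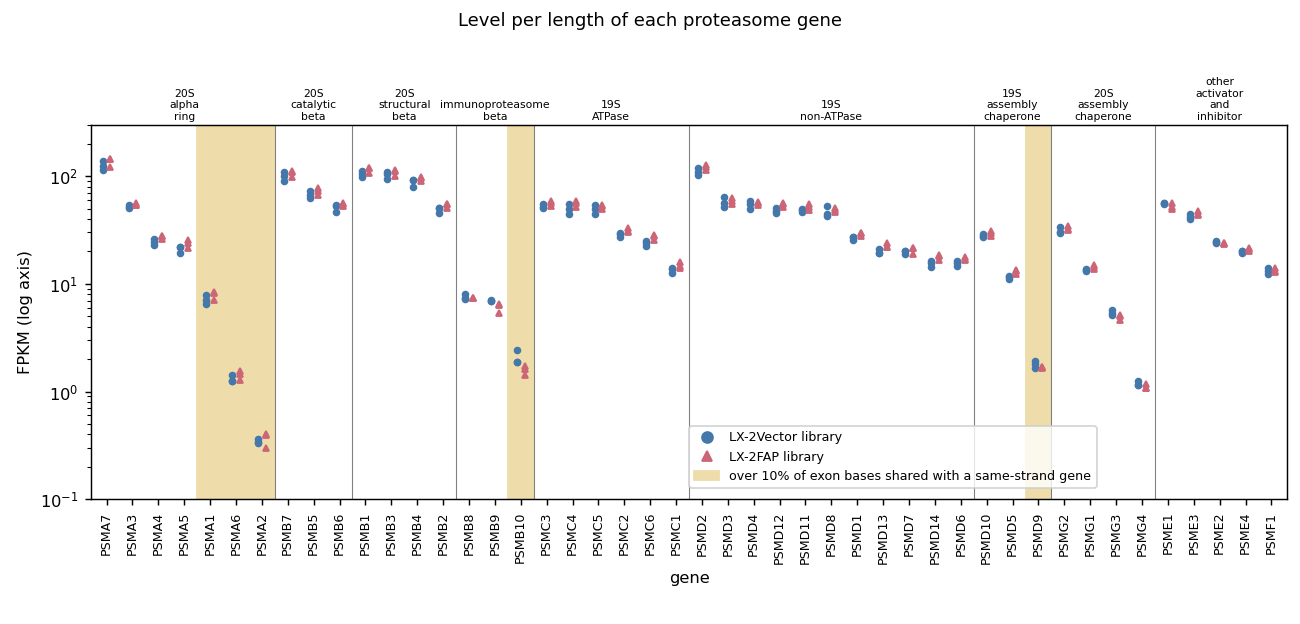
Level of each tested proteasome gene in FPKM (vertical log axis), 1 point per library for LX-2Vector and LX-2FAP, with genes grouped by role and ordered by level. The shaded genes share over 10% of their exon bases with a same-strand gene, and differences between genes (0.345 to 125.2 FPKM in LX-2Vector) exceed those between the groups.

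The 31 constitutive subunits of the 20S core and the 19S particle moved together over libraries and not only between the groups. LX-2Vector replicate 3 was the lowest library for 29 of them and LX-2FAP replicate 2 the highest for 24. These libraries also lay at the ends of the first principal component of all tested genes (-20.7 and 25.4). The same counts over all tested genes are not given here, so this order is not shown to be particular to proteasome genes. The median deviation of the 20S core from its gene means was 0.001, -0.03 and -0.18 in LX-2Vector and -0.04, 0.13 and 0.11 in LX-2FAP on the log2 scale. That of the 19S particle was -0.01, -0.05 and -0.17 and then -0.01, 0.15 and 0.08. In 18 of the 31, LX-2FAP replicate 1 was below LX-2Vector replicate 1. The groups separated with LX-2FAP higher for 10 of the 31, where 13% of all tested genes did so.

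The share of all counts that fell on proteasome genes was 0.668%, 0.653% and 0.604% in LX-2Vector and 0.656%, 0.717% and 0.698% in LX-2FAP. These groups overlapped, since LX-2FAP replicate 1 was below LX-2Vector replicate 1. The immunoproteasome subunits had a median deviation of 0.04, 0.07 and 0.08 in LX-2Vector and -0.02, -0.26 and -0.01 in LX-2FAP. LX-2FAP replicate 2, the library highest for most constitutive subunits, was the lowest for PSMB9 and PSMB10 but not for PSMB8, which was lowest in LX-2Vector replicate 1.

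Single libraries decided which genes were called. Without LX-2FAP replicate 1, the library nearest to the controls, 17 rose, including all 9. Without LX-2FAP replicate 2 or replicate 3, 0 were called, although 13 and 18 of the unadjusted p-values were under 0.05. When LX-2Vector replicate 1 was left out, PSMC4 and PSMD2 were called and none of the 9 was. Leaving out LX-2Vector replicate 2 kept 6 of the 9, and leaving out replicate 3 kept PSMD5 alone. The share of all genes called moved with these, at 10.4% without LX-2FAP replicate 1, 0.687% and 0.138% without replicates 2 and 3, and 2.09%, 3.54% and 2.12% without LX-2Vector replicates 1, 2 and 3. The median log2 fold change of the 46 stayed between 0.09 and 0.17. The 9 called genes stayed positive in every such fit, PSMB9 and PSMB10 stayed negative, and PSMB8 crossed 0.

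**Figure D5:**
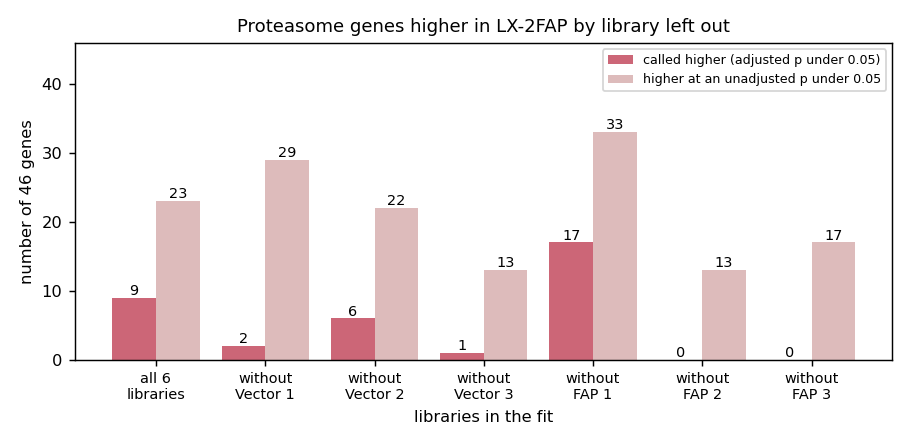
Number of the 46 tested proteasome genes (vertical axis) called higher in LX-2FAP, with all libraries and with each library left out in turn. The paired bar counts genes higher at an unadjusted p under 0.05. Calls run from 0 (without LX-2FAP replicate 2 or 3) to 17 (without LX-2FAP replicate 1).

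The calls also depended on the method. DESeq2 called 12 of the 46, including the 9, all higher. Its share over genes was 8.58% (1021 of the 11897 genes that it gave an adjusted p). Its own filtering left the rest of the 18275 genes without an adjusted p, PSMA2 and PSMB10 among them, so this share and that of edgeR have unlike denominators. limma-trend on log2(FPKM + 1) called 0, with 12 at an unadjusted p under 0.05, 10 of them higher, and called 0.0109% of all genes. Scaling by library size alone called 4, all higher (PSMC6, PSMD12, PSMD13 and PSMD14), with 5.73% of all genes, and turned the calls over all genes from 469 higher and 498 lower to 239 higher and 809 lower. Removing the trend on GC content from each library, an alternative chosen after seeing the data, called 8 higher, of which PSMD1, PSMD5 and PSMD13 were among the 9. It called 4.29% of all genes and changed their split to 588 higher and 196 lower.

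Genes that work with the proteasome without a PSM symbol had the same sign. Of 11 such factors, 11 had a positive log2 fold change (median 0.12), 6 had an unadjusted p under 0.05 and 0 were called. POMP, the chaperone that completes the 20S core, measured 150.0, 145 and 132 CPM in LX-2Vector and 149, 171 and 175 CPM in LX-2FAP. LX-2FAP replicate 1 lay inside the control range. Its log2 fold change of 0.21 (SE 0.06) missed the threshold with an edgeR adjusted p of 0.0516. The 19S-bound deubiquitinases UCHL5 and USP14 had values of 0.15 and 0.14 (adjusted p = 0.0791 and 0.0816), with no overlap between the groups.

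Regulators and feeders of the pathway gave no call. NFE2L1, the transcription factor that raises subunit genes when proteasome activity is short, was at -0.07 on the log2 scale (edgeR adjusted p = 0.359), and the 8 genes of transcription control had a median of 0.03, with 0 at an unadjusted p under 0.05 in edgeR and 0 called. Among 15 ubiquitin and shuttle genes the median was 0.02, 0 were called and 2 had an unadjusted p under 0.05, RPS27A (0.10, adjusted p = 0.187), which encodes ubiquitin fused to a ribosomal protein, and the unfoldase VCP (0.11, adjusted p = 0.208).

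Genes of interferon control and peptide loading, which act downstream of the immunoproteasome or share its induction, were lower. Of 12 tested, 4 fell and 0 rose, where 2.73% of all tested genes fell, and 11 had a negative log2 fold change (median -0.12). TAPBP, which bridges MHC class I to the peptide transporter, measured 233, 228 and 259.9 CPM in LX-2Vector and 215, 187 and 188 CPM in LX-2FAP. The groups did not overlap, and LX-2FAP replicate 1 was the nearest to the controls. Its log2 fold change was -0.29 (SE 0.06, edgeR adjusted p = 0.0140). NLRC5, the transactivator of MHC class I genes, measured 22.9, 22.1 and 20.9 CPM in LX-2Vector and 19.3, 16.8 and 16.8 CPM in LX-2FAP. The groups again did not overlap, and the value was -0.31 (SE 0.08, adjusted p = 0.0306).

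HLA-B, an MHC class I heavy chain, also fell, by 0.23 on the log2 scale (edgeR adjusted p = 0.0249), with no overlap between the groups. Reads can be split between it and its paralogs, so the value is uncertain. TAP1, whose product carries peptides into the endoplasmic reticulum and whose gene lies within the annotated span of PSMB9 on chromosome 6 (32845209 to 32853978), measured 47.5 to 47.9 CPM in LX-2Vector and 41.6 to 45.9 CPM in LX-2FAP, a log2 fold change of -0.10 (adjusted p = 0.279). TAP2, on the other side of PSMB8 (32821833 to 32838780), was at 0.04 (adjusted p = 0.745). IRF1, a transcription factor of the interferon-γ response, was at -0.21 (adjusted p = 0.110) and did not pass the test. Over the 4 associated lists together, the 4 calls became 10 without LX-2FAP replicate 1, 0 without replicate 2 or replicate 3, 2 without LX-2Vector replicate 1 and 1 with the GC trend removed. The share of all genes called went from 5.29% to 10.4%, 0.687%, 0.138%, 2.09% and 4.29% in the same order.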

How the data were processed

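The 6 LX-2 libraries were depleted of ribosomal RNA per the labels, while a poly(A) step is also named in the methods. The authors aligned reads (HISAT2 2.0.5) and counted them per gene (featureCounts 1.5.0-p3, per the submitters' processing notes), and deposited whole-number counts and the FPKM values they computed. Those notes name hg18, while the identifiers of all 48 proteasome genes are in GENCODE release 29 (GRCh38), the source of the coordinates here, so neither the build nor the annotation is settled, and strand use is not given in the sources used here. Strand bears on genes with overlapping exons. Besides PSMC1 and PSMB8, exon bases overlapped on the opposite strand were 30.7% for PSMD7, 19.5% for PSMC5, 16.7% for PSMG2, 15.0% for PSMG4 and 10.8% for the called PSMD1.

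Counts of 18275 genes (filter: minimum count 10, minimum total 15) were tested with edgeR 4.0.16 (R 4.3.3; TMM, quasi-likelihood, no covariate, 2-sided), adjusted over all tested genes. CPM are TMM-normalized. FPKM served for levels between genes and ratios. Exact permutation tests were used for the 3 ratios. Between libraries of a group, chi-square over its degrees of freedom was 2.05 to 4.88, above counting noise. Alternatives were DESeq2 1.42.0, its size factors, library size alone, other filters, limma 3.58.1 on log2(FPKM + 1) and log2(FPKM + 0.1), other thresholds, a replicate block and each library left out. GC and length trends (loess, span 0.5) were chosen after seeing the data. Intervals are 95% intervals.

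Members, roles and lists were chosen with earlier results of these data known. Values in every library are given for called members, the 3 immunoproteasome subunits with the 3 they replace, and the 3 members with the largest positive and negative log2 fold changes. Genes of the 4 other lists are named where called, except for items not reported here. POMP, UCHL5, USP14, NFE2L1, RPS27A, VCP, TAP1, TAP2 and IRF1, and the members with separated groups, were named after their values were seen. Longer promoter motifs (interferon-stimulated response element, nuclear respiratory factor 1, NF-kB) were also searched, and are not reported here.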

Additional observations from a re-analysis of the deposited data

How the results depend on the processing

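With 3 libraries a group, changes of the size seen here (log2 0.15 to 0.22) lay close to the limit of the test. Of 46 tested proteasome genes 9 were called, all higher, and the count was 12 with DESeq2, 9 with DESeq2 size factors, 4 with library size alone, 17 with no filter on low counts (of 47 tested), 9 with at least 10 counts in every sample, 0 with limma-trend on log2(FPKM + 1) and 0 on log2(FPKM + 0.1) (12 with an unadjusted p under 0.05 in each), 8 with the GC trend removed and 16 with the length trend removed, and 0 to 17 with 1 library left out. No alternative called a member lower. The share of all genes called was 5.29% in the main fit and 5.76% with DESeq2 size factors. It was 3.9% with no filter, 6.32% with at least 10 counts in every sample and 5.34% with the replicate block. With the length trend removed it was 9.57%, and 7.01% of all genes were called higher, against 2.57% in the main fit. At adjusted p under 0.1 there were 14, where 10.9% of all tested genes passed. Under 0.01 there were 0, where 0.635% of all tested genes passed. The median log2 fold change of the members stayed positive under every alternative. With the replicate block 8 were called, and PSMD1 was lost. No pairing by replicate number was seen. Deviations of same-numbered libraries correlated at -0.04, 0.04 and -0.01, and no same-numbered libraries were each other's best match. Whether the libraries were paired by culture or batch is not given in the sources used here. Of the genes in the 4 other lists 4 were called, 7 with no filter, 0 with either limma fit, 1 with the GC trend removed, 8 with the length trend removed and 0 to 10 with 1 library left out. Small estimates changed sign. PSMB8 (-0.003; -0.0274 to 0.0408 with 1 library left out) became 0.0032 with DESeq2, 0.0038 with its size factors, 0.0408 without LX-2Vector replicate 2, 0.0015 without LX-2FAP replicate 3, 0.0747 with the GC trend removed and 0.0399 with the length trend removed. PSME2 (-0.01; -0.0228 to 0.0047) became 0.0047 without LX-2Vector replicate 2, 0.0443 (GC) and 0.0306 (length). PSMF1 (0.03; -0.0058 to 0.0895) became -0.0058 without LX-2Vector replicate 2, and with the GC trend removed PSMG3 became 0.0043 and PSME1 0.0077. The cause of these differences was not tested. PSMB10, PSMA2 and PSMA6 had the fewest counts among the tested members and the widest errors.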
